A study of Homo sapiens with 6 samples.

Results

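Enzymes that make, interconvert, release or sulfate steroids were followed in VCaP prostate cancer cells after knockdown of the transcription factor SOX9. The set held 10 genes: the aldo-keto reductase AKR1C3, the hydroxysteroid dehydrogenases HSD17B3, HSD17B4, HSD17B6, HSD17B10 and HSD17B12, the reductases SRD5A1 and SRD5A3, the sulfatase STS and the sulfotransferase SULT2A1. Every probe set annotated to exactly 1 of these symbols was taken, which gave 20 probe sets of 9 genes, among 54613 probe sets of the array that are not controls and 19775 genes with a probe set of their own. SRD5A3 had no probe set of its own in the annotation used and was not analysed here. There was 1 probe set each for AKR1C3, HSD17B3 and HSD17B10, 2 each for HSD17B4, HSD17B6 and SULT2A1, 3 for SRD5A1 and 4 each for HSD17B12 and STS.

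VCaP is an established line that carries the TMPRSS2/ERG gene fusion, so all groups share that fusion. The groups were cells given SOX9 siRNA A (2 arrays), those given SOX9 siRNA B (2 arrays) and those given a non-target control siRNA (2 arrays), all grown in DMEM with serum, with total RNA taken after 72 h. The design text calls the 2 arrays of a group biological duplicates and says that SOX9 is high in untreated VCaP cells. The model is 1 cell line with a transient, incomplete knockdown, and the androgen content of the medium was not given in the labels. Values are MAS5 signals, the brightness of a probe set on a linear scale, and they do not compare 1 probe set's level with another's. The 8 luminal prostate and VCaP markers with a probe set of their own (KLK3, KLK2, HOXB13, TMPRSS2, ERG, KRT8, KRT18 and EPCAM) were all above the level used as a filter, as were the basal keratin KRT14 and the fibroblast collagen COL1A1. KRT14 read 45.3 and 51.5 under siRNA A, 10.3 and 20.2 under siRNA B and 22.1 and 27.3 under control siRNA, replicate 1 before replicate 2 here and below, and COL1A1 read 82.5 and 30.9, 222.9 and 195.7, and 135.4 and 115 in the same order. For both genes the 3 groups did not overlap, but both siRNA B values of KRT14 were under the filter level, a signal of about 22. How many of all probe sets separate in this way was not counted, and the part of both genes in the enzymes' values was not tested. The 4 leukocyte markers, the basal marker KRT5 and the other 4 fibroblast markers were below that level. In cultures measured in bulk, fewer cells with a transcript and less of it per cell cannot be told apart.

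As background, prostate cancer cells can build active androgens from adrenal precursors. SULT2A1 adds sulfate to the adrenal steroid DHEA, and STS takes it off again. AKR1C3 and HSD17B3 reduce androstenedione to testosterone, and the 5alpha-reductases SRD5A1 and SRD5A2 turn testosterone or its precursors into 5alpha-reduced androgens such as dihydrotestosterone. HSD17B6 can oxidise the spent metabolite androstanediol back to dihydrotestosterone, and HSD17B4 oxidises active 17beta-hydroxysteroids. Some of these enzymes are better known for lipid work: HSD17B4 as the multifunctional enzyme of peroxisomal beta-oxidation, HSD17B12 as a reductase of fatty acid elongation, HSD17B10 as a mitochondrial enzyme of isoleucine breakdown and a subunit of mitochondrial RNase P, and SRD5A3 as the polyprenol reductase of dolichol synthesis.

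The knockdown targeted a SOX factor, so the promoters were searched for the SOX core motif AACAAT on both strands (ATTGTT on the other). RefSeq promoter sequences of GRCh38.p14 were found for 8 of the 10 genes, 14 annotated starts in all, and the window was the 250 bases before each start. The motif was in 3 of these 14 windows, 2 of AKR1C3 and 1 of the 5 of STS, against 8.99% of 34943 such windows of all genes. These 3 were the lowest of the 14 in G and C content (32.0, 35.6 and 38.8%), and the share of all windows was not matched for base content. The 3 windows that held the motif are shown first, with the motif in capitals, followed by that of HSD17B4, which held none. The windows of HSD17B3, HSD17B10, SRD5A1, SRD5A3 and SULT2A1 held none either.
AKR1C3, start 1, chr10:5048531-5048780, plus strand: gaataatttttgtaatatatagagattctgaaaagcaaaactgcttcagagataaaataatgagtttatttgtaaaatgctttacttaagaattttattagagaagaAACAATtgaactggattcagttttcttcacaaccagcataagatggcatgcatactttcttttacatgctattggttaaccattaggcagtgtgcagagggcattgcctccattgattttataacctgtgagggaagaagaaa
AKR1C3, start 2, chr10:5094164-5094413, plus strand: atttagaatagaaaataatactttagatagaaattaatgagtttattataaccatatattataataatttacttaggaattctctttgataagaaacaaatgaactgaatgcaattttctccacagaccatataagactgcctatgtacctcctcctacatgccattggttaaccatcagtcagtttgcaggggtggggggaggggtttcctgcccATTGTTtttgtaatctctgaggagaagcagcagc
STS, start 4, chrX:7251994-7252243, plus strand: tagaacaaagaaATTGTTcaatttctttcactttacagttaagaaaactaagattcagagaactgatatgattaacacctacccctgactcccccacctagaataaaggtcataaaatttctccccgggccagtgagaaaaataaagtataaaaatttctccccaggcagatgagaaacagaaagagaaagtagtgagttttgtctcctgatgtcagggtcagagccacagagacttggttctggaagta
HSD17B4, chr5:119452247-119452496, plus strand: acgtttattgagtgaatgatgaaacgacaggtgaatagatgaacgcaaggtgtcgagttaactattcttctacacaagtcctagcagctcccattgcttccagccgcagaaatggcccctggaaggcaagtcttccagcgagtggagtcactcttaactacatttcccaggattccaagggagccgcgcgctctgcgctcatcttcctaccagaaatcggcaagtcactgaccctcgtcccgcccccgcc
The first base of the motif lay 143 bases before start 1 of AKR1C3, 34 bases before its start 2 (as ATTGTT) and 238 bases before start 4 of STS (as ATTGTT). The half-site AGAACA of the androgen response element, searched in the same way (TGTTCT on the other strand), was in 2 windows of STS and in no other member window, against 12.4% of all windows. In STS start 4 it began 249 bases before the start and did not overlap the SOX core, and in STS start 1 it began 105 bases before the start. The sterol regulatory element core TCACNCCAC (GTGGNGTGA on the other strand) was in none of the 14 windows, against 0.881% of all. A match is a match of letters and no measure of binding.

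SOX9 itself was lower in every SOX9 siRNA array than in either control array, and lowest under siRNA B. Its probe set 202936_s_at read 860.8 and 585.8 under siRNA A, 569.8 and 292.6 under siRNA B and 1557.9 and 1269.6 under control siRNA. Its other probe set, 202935_s_at, read 1107.9 and 672.6, 609.3 and 333.5, and 1469.3 and 1126.2 in the same order, a narrow margin for siRNA A replicate 1. Within each siRNA the replicate 2 array had less SOX9 than the replicate 1 array. The log2 fold change for both siRNAs together was -1.36 (SE 0.29) in 202936_s_at. It did not pass limma's test without the replicate block described below (adjusted p = 0.328), but passed with it (limma adjusted p = 3.25e-06). In 202935_s_at it was -1.02 (limma adjusted p = 0.571, and 0.00141 with the block). For siRNA A alone it was -0.97 in 202936_s_at and -0.57 in 202935_s_at, and for siRNA B -1.74 and -1.48, none past the test without the block. With the block, siRNA A passed in 202936_s_at (limma adjusted p = 0.0330) but not in 202935_s_at (0.545).

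No enzyme of the set was called for either siRNA or for both together. Tests were run on log2(signal + 16) with limma over the 27307 probe sets with a mean of at least the median, a signal of about 22, and a call needed a p below 0.05 after Benjamini-Hochberg adjustment over all of them. Of the 20 member probe sets, 11 of 7 genes were tested and 9 were below that level. For both siRNAs against control 0 of 11 were called, against 0.00366% of all tested probe sets (1 of 27307), and 2 of 11 had an unadjusted p below 0.05, against 6.9% of all. The counts for siRNA A against control were 0 called (0.00732% of all) and 1 at the unadjusted level (3.86% of all). Those for siRNA B against control were 0 called (0.0623% of all) and 2 at the unadjusted level (10.3% of all). Between the siRNAs 0 were called (0.0476% of all) and 1 reached the unadjusted level (7.48% of all). Taking the brightest probe set of each of the 7 tested genes, 3 had a positive and 4 a negative log2 fold change for both siRNAs, with a median of -0.21, against -0.03 over all tested probe sets.

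Same-numbered arrays deviated from their group means together, more between the siRNAs (a correlation of 0.59) than between either siRNA and control (0.15 each). Each result was therefore also fitted with the replicate number as a block, a term that removes a difference shared by all arrays of 1 number. With that block 1 of 11 member probe sets was called for both siRNAs (3.01% of all), 1 for siRNA A (1.3% of all), 2 for siRNA B (5.6% of all) and 0 between the siRNAs (2.6% of all). The called probe sets were STS 203767_s_at in the first 3 comparisons and HSD17B4 201413_at for siRNA B. In the blocked fit limma estimated no spread of a probe set's own and used its trend for all, which can make these p-values too small. The labels do not say that a replicate number marks a shared culture or day, and only 2 numbers bear on the pairing, so every blocked call given here depends on it.

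**Figure D1:**
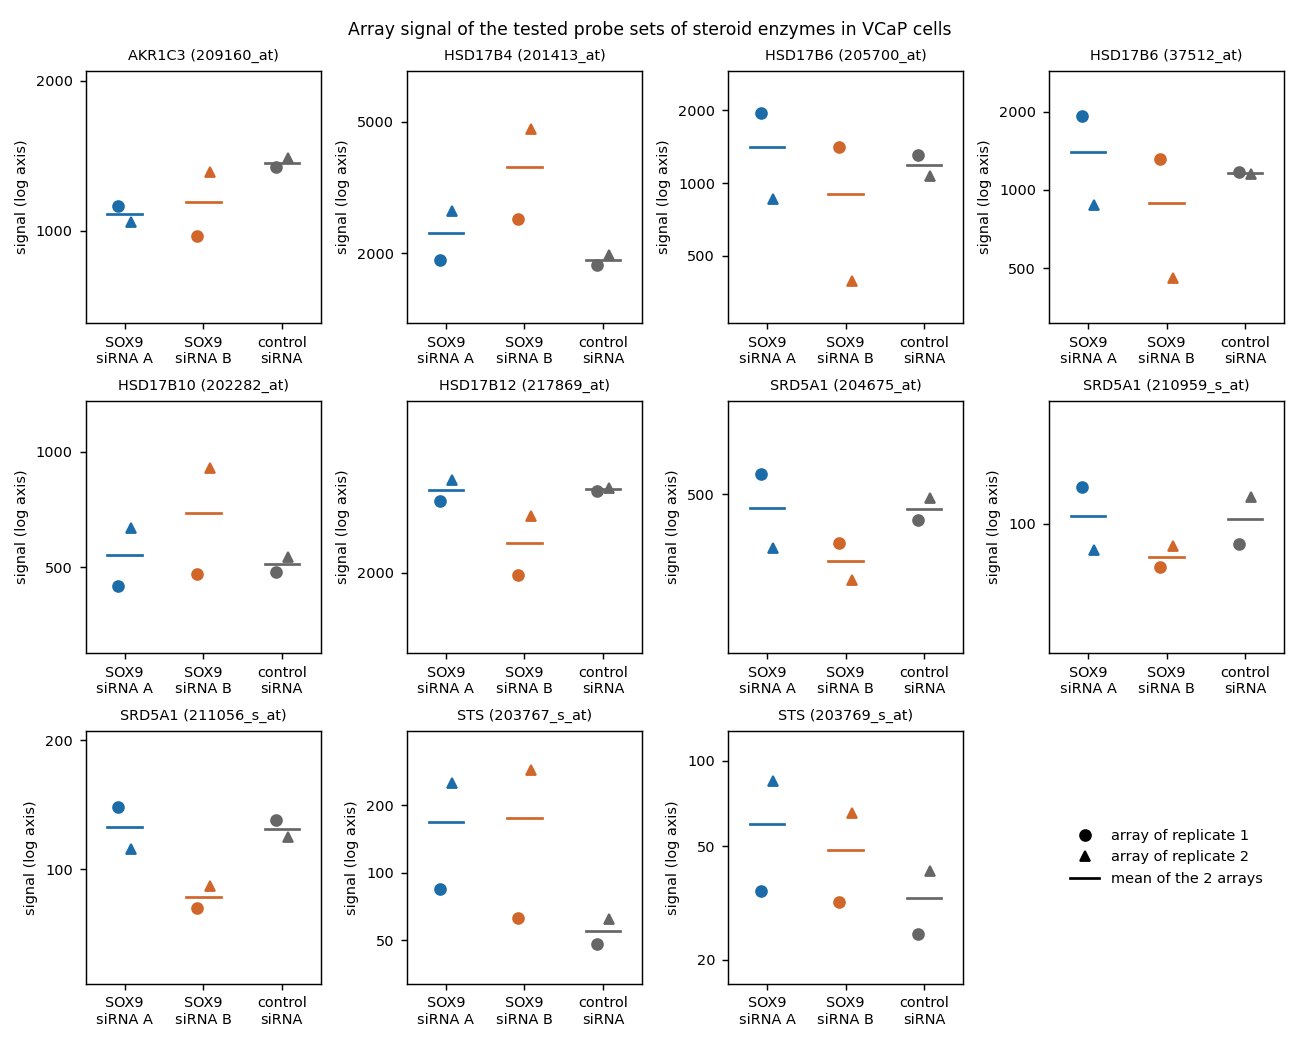
Signal of the 11 tested probe sets (log axis, scaled separately in each panel) in the 6 arrays, with the groups from left to right SOX9 siRNA A, siRNA B and control. Circles are replicate 1, triangles replicate 2 and lines the mean of both. All 4 SOX9 siRNA arrays lie above both control arrays for STS 203767_s_at and below both for AKR1C3, and for both HSD17B6 probe sets the control arrays lie between the replicate 1 and replicate 2 arrays of each siRNA.

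STS (chrX:7147290-7354641 in GRCh38.p14, as are the other gene positions given here), the sulfatase that frees DHEA and estrone from their sulfates, had the largest positive change of the set in log2 fold change for both siRNAs. Probe set 203767_s_at read 84.2 and 251.7 under siRNA A, 63 and 286.5 under siRNA B and 47.9 and 62 under control siRNA. All 4 SOX9 siRNA arrays lay above both control arrays, by a wide margin in both replicate 2 arrays and, for siRNA B replicate 1, by 1 unit of signal. Separation of this kind, all 4 arrays above both controls, was seen in 1 of 11 member probe sets and in 4.75% of all tested probe sets. The separation also held after quantile normalization and after median centring.

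The log2 fold change of STS 203767_s_at was 1.17 (SE 0.45, 95% interval 0.22 to 2.13) for both siRNAs, or 2.25-fold, and did not pass (limma adjusted p = 0.648). It was 1.21 (SE 0.52) under siRNA A and 1.13 (SE 0.52) under siRNA B, with limma adjusted p of 1.00 and 0.469. The blocked fit called STS 203767_s_at higher in all 3 comparisons. The limma adjusted p was 7.06e-05 for both siRNAs, 0.00123 for siRNA A and 0.00133 for siRNA B. The SE for both siRNAs was 0.23 there, taken from limma's trend and not from this probe set's own spread, which can make these p-values too small. The block removes only a shift shared by all groups, and replicate 2 exceeded replicate 1 by 1.42 and 1.94 in the siRNAs, against 0.29 in control. The siRNAs differed by 0.08, with a 95% interval from -1.02 to 1.19 (limma adjusted p = 0.994). The size rested on the replicate 2 arrays. Without both replicate 2 arrays of the SOX9 siRNAs, the 2 arrays left being taken as 1 group, the log2 fold change was 0.33 (SE 0.23, limma adjusted p = 0.960). Without both replicate 1 arrays it was 2.01 (SE 0.27, limma adjusted p = 0.000248). That last fit was chosen after seeing the data and left out the 2 siRNA arrays with the lowest STS, so its p-value is no test of STS. It also called many more of all tested probe sets, as given in the last section. Against the control of the same number the log2 fold change was 0.65 under siRNA A and 0.31 under siRNA B in replicate 1, and 1.78 and 1.96 in replicate 2. Leaving out siRNA B replicate 1 alone, which left 1 array for siRNA B, gave 2.10 for siRNA B. Leaving out siRNA B replicate 2 alone gave 0.16.

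STS had 3 other probe sets. STS 203769_s_at read 34.8 and 84.6 under siRNA A, 31.8 and 65.4 under siRNA B and 24.7 and 41.1 under control siRNA. The replicate 2 array was the higher in all 3 groups, and the groups overlapped. Its log2 fold change for both siRNAs was 0.47 (SE 0.32, limma adjusted p = 0.829), and with the replicate block it did not pass either. STS 203768_s_at, below the filter level, read 13.3 and 39.2 under siRNA A, 6.9 and 41.4 under siRNA B and 1.8 and 18.3 under control siRNA, again higher in replicate 2 of each group. STS 203770_s_at stayed between 1.3 and 2.4 in all 6 arrays. The suffix _s_at marks probe sets that can bind more than 1 transcript.

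HSD17B4 (chr5:119452497-119542332), the peroxisomal enzyme that also oxidises estradiol, followed STS in size. Probe set 201413_at read 1908.3 and 2691 under siRNA A, 2538.9 and 4756.5 under siRNA B and 1843.2 and 1974.2 under control siRNA. Both siRNA B arrays lay above both control arrays, siRNA B replicate 2 was far the highest, and siRNA A replicate 1 lay between the controls. How many of all tested probe sets had both siRNA B arrays above both controls was not counted. After median centring, but not after quantile normalization, all 4 SOX9 siRNA arrays lay above both controls in HSD17B4 201413_at as well as in STS 203767_s_at, 2 of 11 member probe sets. The 4.75% of all tested probe sets given for STS belongs to the deposited values, and the share after median centring was not counted. The log2 fold change of HSD17B4 for both siRNAs was 0.55 (SE 0.25, 95% interval 0.03 to 1.08) and did not pass (limma adjusted p = 0.706). With siRNA A it was 0.25 (SE 0.28, limma adjusted p = 1.00). With siRNA B it was 0.86 (SE 0.28), or 1.82-fold, which did not pass (limma adjusted p = 0.295). The blocked fit called HSD17B4 higher under siRNA B (limma adjusted p = 0.00710), again with the trend's spread in place of its own.

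The siRNAs differed in HSD17B4 by -0.61, siRNA A minus siRNA B (95% interval -1.22 to -0.01, limma adjusted p = 0.662). Without siRNA B replicate 1, which left 1 array for siRNA B, the log2 fold change of HSD17B4 was 1.31 for siRNA B and -1.06 between the siRNAs. Without siRNA B replicate 2 it was 0.41 for siRNA B. For both siRNAs it was 0.21 without both replicate 2 arrays (limma adjusted p = 0.960) and 0.90 without both replicate 1 arrays (limma adjusted p = 0.0561). The second HSD17B4 probe set, 1563696_at, read 1.3 to 10.7 and was not tested.

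HSD17B6 (chr12:56763324-56787790), which can restore dihydrotestosterone from androstanediol, differed widely between the replicates of each siRNA. Probe set 205700_at read 1950.9 and 862.8 under siRNA A, 1412.5 and 393 under siRNA B and 1305 and 1072.6 under control siRNA. Its second probe set, 37512_at, read 1915.9 and 873 under siRNA A, 1314.3 and 460 under siRNA B and 1175.4 and 1153.6 under control siRNA. In both probe sets the replicate 1 arrays of both siRNAs lay above both controls and the replicate 2 arrays below both. Within each replicate number the siRNA B array lay below the siRNA A array in both probe sets.

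The log2 fold changes of HSD17B6 for both siRNAs were small, -0.26 (SE 0.41) and -0.21 (SE 0.37) in the 2 probe sets, with limma adjusted p of 0.941 and 0.947. They were 0.13 and 0.15 under siRNA A and -0.65 and -0.57 under siRNA B, none of them past the test. The siRNAs differed by 0.78 and 0.72, siRNA A minus siRNA B, also short of the test (limma adjusted p = 0.813 and 0.800, and 0.0837 and 0.133 with the replicate block). Without both replicate 2 arrays of the SOX9 siRNAs the sign turned, to 0.48 (SE 0.21) and 0.44 (SE 0.21), with limma adjusted p of 0.960 for each. Without both replicate 1 arrays 37512_at was at -0.86 (SE 0.30), with limma adjusted p of 0.131, and 205700_at had one of 0.0990. Without siRNA B replicate 1 alone, which left 1 array for siRNA B, HSD17B6 was at -1.55 and -1.31 for siRNA B. The difference between the siRNAs was then 1.68 in 205700_at.

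**Figure D2:**
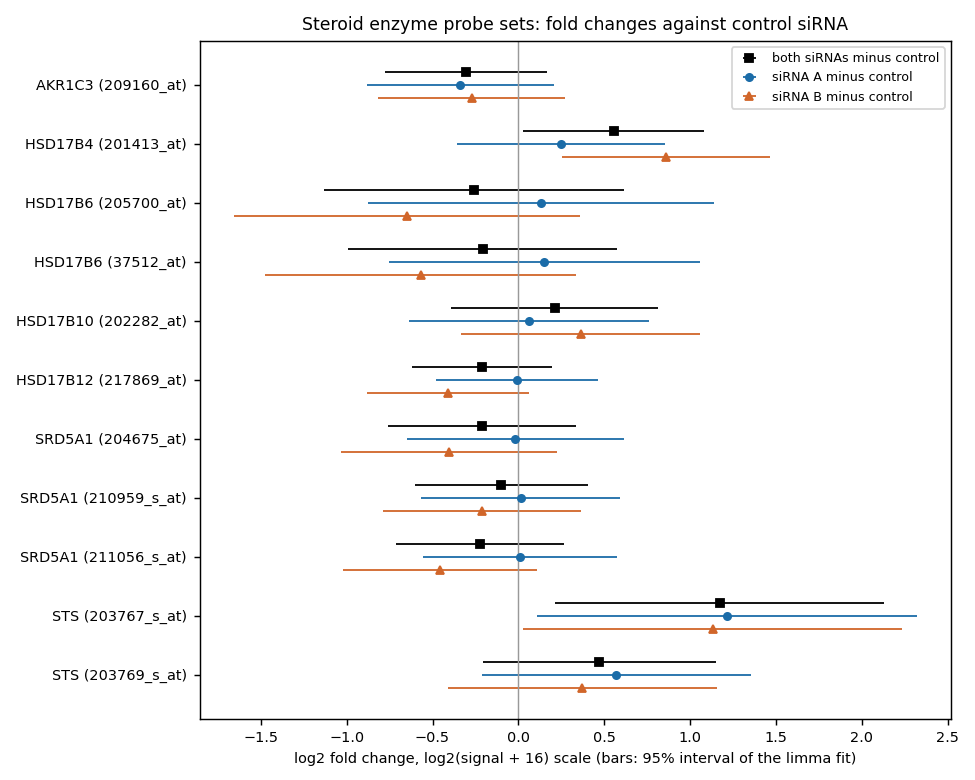
Log2 fold change on the log2(signal + 16) scale of each tested probe set for both SOX9 siRNAs, siRNA A and siRNA B, each minus control siRNA, with bars for the 95% interval of the limma fit. STS 203767_s_at lies farthest right at 1.17 for both siRNAs, and the intervals of both HSD17B6 probe sets span 0 in all 3 comparisons.

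HSD17B10 (chrX:53431258-53434376), the mitochondrial dehydrogenase, was highest in the replicate 2 arrays of both siRNAs. It read 447.7 and 632.7 under siRNA A, 480.1 and 904.7 under siRNA B and 487.1 and 533 under control siRNA, and the replicate 1 arrays of both siRNAs lay below both controls. The log2 fold change for both siRNAs was 0.21 (SE 0.28, 95% interval -0.39 to 0.82, limma adjusted p = 0.929). It was 0.06 under siRNA A and 0.36 under siRNA B. Without both replicate 2 arrays it was -0.13, and without siRNA B replicate 2 alone it was -0.01.

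AKR1C3 (chr10:5048781-5107686), the reductase that makes testosterone from androstenedione, was lower in all 4 SOX9 siRNA arrays than in both controls. It read 1119.8 and 1042.9 under siRNA A, 978 and 1310.6 under siRNA B and 1342.5 and 1398.5 under control siRNA. The siRNA B replicate 2 array came nearest to the controls. Such separation was seen in 1 of 11 member probe sets and in 10.9% of all tested probe sets, near the members' own share, and it also held after quantile normalization and median centring. The log2 fold change was -0.30 (SE 0.22, 95% interval -0.78 to 0.17) for both siRNAs, or 0.810-fold (limma adjusted p = 0.846). It was -0.34 under siRNA A and -0.27 under siRNA B (limma adjusted p = 1.00 and 0.776), and neither passed with the replicate block. Over the 17 alternatives the value for both siRNAs ran from -0.41 to -0.20. AKR1C3 is close in sequence to AKR1C1, AKR1C2 and AKR1C4, and binding of their transcripts to its probes was not tested.

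HSD17B3 (chr9:96235306-96302176), the reductive enzyme best known from the testis, was dim. Its probe set 206985_at read 9.7 and 2.9 under siRNA A, 2.3 and 4.3 under siRNA B and 18.4 and 16.5 under control siRNA. All 4 SOX9 siRNA arrays were below both controls, but every value was under the filter level, where the order of signals is uncertain. In a fit with no filter its log2 fold change was -0.70 (SE 0.20) for both siRNAs and did not pass (limma adjusted p = 0.820), and this offset of 16 understates differences between such low signals.

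SRD5A1 (chr5:6633440-6674386), the 5alpha-reductase of the set that could be measured, had 3 probe sets. Probe set 204675_at read 557.6 and 370.3 under siRNA A, 380.7 and 311.2 under siRNA B and 433.7 and 488.8 under control siRNA. Probe set 211056_s_at read 140.1 and 111.6 under siRNA A, 81.3 and 91.3 under siRNA B and 130.3 and 118.8 under control siRNA. Probe set 210959_s_at read 118.9 and 88.3 under siRNA A, 81.3 and 89.8 under siRNA B and 90.8 and 113.3 under control siRNA. In all 3 both siRNA B arrays lay below both controls, while the siRNA A arrays lay above and below them. The margin was narrow in 210959_s_at, 89.8 against 90.8, and the 3 probe sets are of the same gene. The share of all tested probe sets with both siRNA B arrays below both controls was not counted.

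The log2 fold changes of SRD5A1 under siRNA B were -0.40 (SE 0.29), -0.46 (SE 0.26) and -0.21 (SE 0.27) in the same order, with limma adjusted p of 0.694, 0.597 and 0.846. With siRNA A they were -0.02, 0.01 and 0.01. For both siRNAs they ran from -0.23 to -0.10, and none passed. The siRNAs did not differ past the test in any of the 3, and the 95% intervals of that difference ran from -0.24 to 1.02, from -0.10 to 1.03 and from -0.35 to 0.80, siRNA A minus siRNA B.

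HSD17B12 (chr11:43556721-43856615) is the ketoacyl reductase of very long chain fatty acid synthesis. Probe set 217869_at read 2886.3 and 3223.6 under siRNA A, 1978.2 and 2677.3 under siRNA B and 3048.7 and 3085.5 under control siRNA. Both siRNA B arrays lay below both controls, a separation whose share among all tested probe sets was not counted, and the siRNA A arrays lay on either side of them. The log2 fold change was -0.01 (SE 0.22) under siRNA A and -0.41 (SE 0.22, 95% interval -0.88 to 0.06) under siRNA B, with limma adjusted p of 1.00 and 0.556. The difference between the siRNAs was 0.40 (95% interval -0.07 to 0.87, limma adjusted p = 0.763). The other 3 HSD17B12 probe sets read 0.6 to 19.9 and were not tested.

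SULT2A1 (chr19:47870467-47886315), the liver and adrenal enzyme that sulfates DHEA, stayed below the filter level. Its probe sets read 0.7 to 8.2 and 1.1 to 9.1 over the 6 arrays, and the groups overlapped in both.

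Within each siRNA the arrays differed most in STS 203767_s_at and HSD17B6 among the tested member probe sets. Replicate 2 was at least 2-fold above replicate 1 in both siRNAs, on the log2(signal + 16) scale, in STS 203767_s_at alone among the 11 tested member probe sets and in 0.505% of all tested probe sets. It was at least 2-fold below in both siRNAs in the 2 HSD17B6 probe sets and in 0.74% of all. The control arrays differed by 2-fold in 0 of 11 member probe sets and in 0.941% of all. The difference of replicate 2 minus replicate 1 in STS 203767_s_at was 1.42 under siRNA A and 1.94 under siRNA B, against 0.29 under control siRNA. In STS 203769_s_at the difference was 0.99 and 0.77, against 0.49 (in plain signal 2.43-fold and 2.06-fold, against 1.66-fold). In HSD17B6 205700_at it was -1.16 and -1.80, against -0.28 under control siRNA, and in 37512_at it was -1.12 and -1.48, against -0.03. HSD17B4 differed by 0.49 and 0.90, against 0.10 under control siRNA, and HSD17B10 by 0.48 and 0.89, against 0.13. In all, 8 of 11 member probe sets had a difference of the same sign in both siRNAs that was larger in each than in control, as had 29% of all tested probe sets. These are descriptions of 1 array against 1 array and carry no test.

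**Figure D3:**
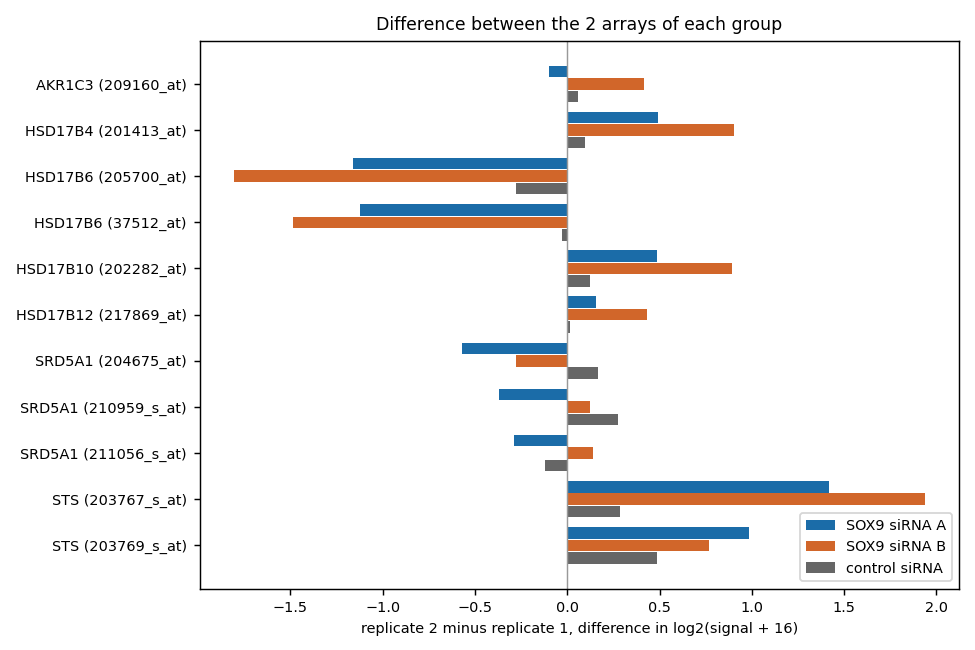
Difference between the replicate 2 and replicate 1 arrays of each group, in log2(signal + 16), for the 11 tested probe sets. In both siRNAs the bars of STS 203767_s_at and of both HSD17B6 probe sets are the longest, and the 2 genes point opposite ways. Under siRNA B they are at 1.94 for STS 203767_s_at and -1.80 for HSD17B6 205700_at, while control bars stay within 0.49.

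Other values moved with these arrays. SOX9 was lower in replicate 2 than in replicate 1 in each group, by 0.54 under siRNA A, 0.92 under siRNA B and 0.29 under control siRNA on the log2 scale in 202936_s_at. The summed signal of the 5 steroidogenic or hepatic markers was 1548 and 3448 under siRNA A, 2114 and 4038 under siRNA B and 817 and 1290.0 under control siRNA. It came almost wholly from ALB and TTR, which encode albumin and transthyretin, while STAR, CYP11B1 and NR5A1, the markers of steroid-making glands, were below the filter level. The summed signal of the 4 leukocyte markers, all below the filter level, was 48 and 78.9 under siRNA A, 51.8 and 107 under siRNA B and 31.2 and 99.3 under control siRNA. Luminal markers summed to 35562 and 29858 under siRNA A, 32730 and 35340 under siRNA B and 32519 and 35328 under control siRNA, a sum led by KLK2 and no guide to the others. Markers chosen after their values were seen did differ between replicates: KLK3, which encodes PSA, by -1.31 under siRNA A, -0.81 under siRNA B and -0.62 under control siRNA, TMPRSS2 by -0.96, -0.45 and -0.09, and ERG by -0.64, -0.20 and 0.28, replicate 2 minus replicate 1 on the log2 scale. KRT8 and KRT18 were higher in replicate 2 under siRNA B, by 0.80 and 0.63. Under siRNA A they differed by 0.06 and 0.005, and under control siRNA by -0.07 and 0.13. In the order siRNA A, siRNA B and control, HOXB13 differed by 0.09, 0.22 and 0.47 and EPCAM by -0.12, 0.28 and 0.18. KLK2 differed by -0.20, -0.01 and 0.14, so the luminal markers did not shift together. The trimmed mean signal ran from 143 to 189 over the arrays, and the lowest and highest were the 2 arrays of siRNA B. The part of any of these in the enzymes' values was not tested.

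The rest of steroid metabolism was examined in 48 further genes grouped by role, with the brightest probe set standing for each gene. Of these, 44 had a probe set of their own and 27 were tested. For both siRNAs 0 rose and 0 fell by limma (6 with an unadjusted p below 0.05), for siRNA A 0 (3), and for siRNA B 3 rose and 0 fell (5), where 0.0293% of all tested probe sets were called higher. Between the siRNAs 0 were called (5). The median log2 fold change for both siRNAs was -0.06, against -0.03 over all tested probe sets. With the replicate block 4 were called higher and 1 lower for both siRNAs (3.01% of all tested probe sets called in either direction), 0 higher and 1 lower for siRNA A (1.3%), 4 higher and 1 lower for siRNA B (5.6%), and 0 higher and 4 lower for siRNA A against siRNA B (2.6%).

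The 3 genes that rose under siRNA B were androgen glucuronosyltransferases, which inactivate androgens for excretion. UGT2B17 read 48.6 and 71.9 under siRNA A, 148.9 and 343 under siRNA B and 29.3 and 38.8 under control siRNA, a log2 fold change of 2.29 for siRNA B (limma adjusted p = 0.0357). UGT2B28 was at 2.07 (limma adjusted p = 0.0328) and UGT2B15 at 1.96 (limma adjusted p = 0.0357) for siRNA B. These calls were lost by all 3 after quantile normalization or median centring, with no filter and with eBayes without trend, and UGT2B15 and UGT2B17 lost theirs with an offset of 1. They were also lost by all 3 without siRNA B replicate 2 (1.73 for UGT2B17, 1.87 for UGT2B28 and 1.66 for UGT2B15) or without control replicate 1 (2.15, 2.25 and 1.70 in that order), by UGT2B28 without control replicate 2 (1.90), and by UGT2B15 with either siRNA A array, or siRNA A as a whole, left out. Over all these fits the limma adjusted p ran from 0.0530 to 0.503. The siRNAs differed by -1.69, -1.56 and -1.78 in that order, siRNA A minus siRNA B, which did not pass (limma adjusted p from 0.0557 to 0.125) except in the blocked fit. The probe sets used for UGT2B15 and UGT2B28 can bind related UGT2B transcripts.

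Upstream of the set, the transcripts of androgen synthesis itself were dim. CYP17A1, HSD3B1 and HSD3B2, which carry pregnenolone to androstenedione, and STAR and CYP11A1, which start steroid synthesis, were all below the filter level. The redox partners CYB5A (-0.15) and POR (-0.08) and the electron carrier FDX1 (0.01) showed log2 fold changes near 0 for both siRNAs, the cholesterol carrier STARD3 was at 0.13 and the mitochondrial protein TSPO at -0.33, none past the test. SRD5A2 and AKR1C4 were also below the filter level.

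Among other dehydrogenases, HSD17B11 was at -0.45, HSD17B8 at -0.56 and HSD17B7, which also works in cholesterol synthesis, at 0.30 for both siRNAs. None passed, with limma adjusted p from 0.762 to 0.886. RDH16, which oxidises retinol and 3alpha-hydroxysteroids, was at -0.68 (limma adjusted p = 0.641), AKR1C2 at -0.38 and AKR1C1 at -0.20. RDH16 fell under siRNA B in the blocked fit only (limma adjusted p = 0.0421). Among the corticosteroid enzymes, HSD11B2, which inactivates cortisol, was at -0.60 and H6PD at -0.09, while HSD11B1 was below the filter level.

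CYP1B1, which hydroxylates estrogens, read 195.1 and 145.2 under siRNA A, 461.3 and 1161.6 under siRNA B and 144.6 and 179.6 under control siRNA. Its log2 fold change for siRNA B, 2.08, did not pass (limma adjusted p = 0.0665), and the blocked fit called it (limma adjusted p = 4.93e-11). CYP7B1 was at 0.52 and CYP3A4 at -0.06 for both siRNAs.

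Among the sulfation genes, 1 was called in the blocked fit. SULT2B1, which sulfates cholesterol and 3beta-hydroxysteroids, read 18.7 and 2.9 under siRNA A, 35.5 and 33.4 under siRNA B and 47.3 and 51.2 under control siRNA. All 4 SOX9 siRNA arrays were below both controls, as in 4 of the 27 tested genes outside the set and 10.9% of all tested probe sets. Both siRNA A values were under the filter level, where the order of signals is uncertain. The log2 fold change of SULT2B1 was -0.86 (SE 0.28) for both siRNAs and did not pass (limma adjusted p = 0.623), and the blocked fit called it (limma adjusted p = 0.0418). For siRNA A it was -1.35, called in the blocked fit only (limma adjusted p = 0.935 without the block and 0.00234 with it). PAPSS2, which makes the sulfate donor, was at 0.24 and SULT1A1 at -0.19.

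**Figure D4:**
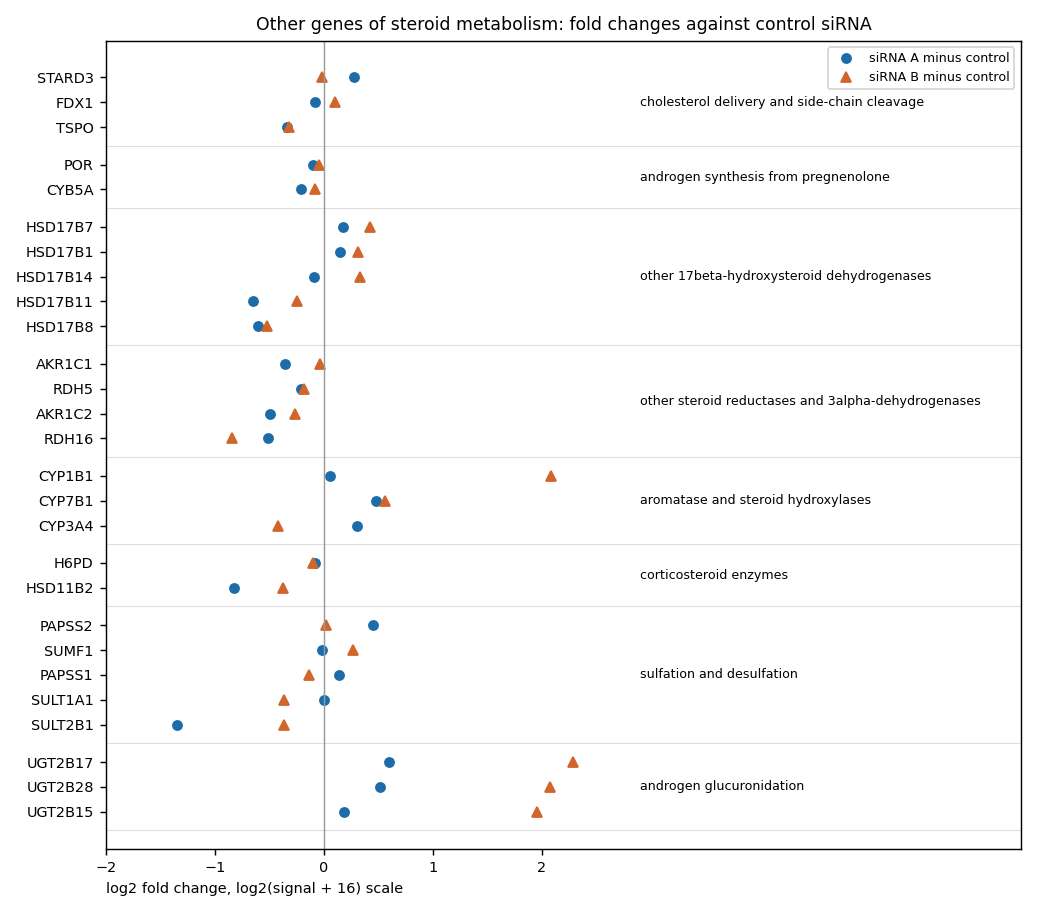
Log2 fold change on the log2(signal + 16) scale under SOX9 siRNA A (circles) and siRNA B (triangles), each minus control siRNA, for the 27 tested genes of steroid metabolism outside the set, grouped by role. UGT2B17, UGT2B28, UGT2B15 and CYP1B1 lie at 1.96 or above under siRNA B, and all other points lie between -1.35 and 0.60.

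The members with lipid roles were set beside their partner genes, 29 in all, of which 25 had a probe set and 22 were tested. For both siRNAs 0 rose and 0 fell by limma (1 with an unadjusted p below 0.05), and the counts were also 0 for siRNA A (1), siRNA B (1) and between the siRNAs (2). The median log2 fold change for both siRNAs was 0.08. Beside HSD17B4 in the peroxisome, AMACR, a racemase raised in prostate cancer, read 61.2 and 81.4 under siRNA A, 40.7 and 96 under siRNA B and 24.7 and 39.6 under control siRNA. Its log2 fold change for both siRNAs was 0.81, with limma adjusted p of 0.636, and 0.0313 in the blocked fit. ACOX2 was at -0.50 and ACAA1, the peroxisomal thiolase, at 0.16, and of the 4 tested partners of HSD17B4 2 had a positive and 2 a negative value.

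Beside HSD17B12, the elongases ELOVL7 and ELOVL4 were at 0.50 and 0.54 and ELOVL5 at 0.21 for both siRNAs, while HSD17B12 was at -0.21, none past the test. ELOVL6, not among the 3 smallest p-values of its role for both siRNAs but called in the blocked fit, was at 0.85 for siRNA B (limma adjusted p = 0.491, and 0.0401 with the replicate block). Beside HSD17B10, the other subunits of mitochondrial RNase P, TRMT10C and PRORP, were at -0.11 and -0.13, and ECHS1, of isoleucine breakdown, at 0.03. Of the dolichol genes beside SRD5A3, DOLPP1 was at 0.48, DOLK at 0.34 and DPAGT1 at -0.23, none past the test (limma adjusted p from 0.824 to 0.909).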

How the data were processed

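Total RNA of 6 VCaP cultures was hybridised to Affymetrix U133 Plus 2.0 arrays, from 6 ug each, per the labels' protocols. The deposited values are linear intensity, 1 signal per probe set, made by the authors with MAS5, per the submitters' processing notes. The MAS5 version and target were not found in those notes, and the authors' scaling was kept. The file held 54675 probe sets, of which 62 controls were left out.

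Signals were used as log2(signal + 16). Probe sets with a mean below the median, 5.25 on that scale, were left out, which left 27307. limma 3.58.1 in R 4.3.3 (lmFit on 3 groups over all 6 arrays, 3 residual degrees of freedom, eBayes with trend) was run over the whole table, two-sided, with Benjamini-Hochberg adjustment. The fit was tested on simulated data. Each group's arrays limit the precision to 2 values. The p-values rest on the spread between these arrays, drawn by limma toward its trend over all tested probe sets (11.5 prior degrees of freedom). In the blocked fit they rest on that trend alone.

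Replicate numbers come from the sample titles. After group means were removed, arrays of 1 number correlated at 0.59 (siRNA A with siRNA B), 0.15 (siRNA A with control) and 0.15 (siRNA B with control), each over 0.1, and were treated as pairs, which the labels do not state. Blocked values stand where they change a call. Probe sets were named from GEO's platform annotation: 41091 had 1 symbol, 1801 several and 11721 none. Promoters came from RefSeq, GRCh38.p14.

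The members, gene lists and tests were chosen with earlier results of these data known. Named genes were all members, SOX9, every listed gene called in a comparison and up to 3 per role with the smallest unadjusted p for both siRNAs. CYP1B1, SULT2B1, RDH16, AMACR and ELOVL6 are also named with blocked values. Alternatives were log offsets of 1 and 64, quantile normalization, median centring, no filter, a filter at the 75th percentile, 1 probe set per gene, eBayes without trend, the replicate block, only the compared groups, and each array, or both replicate 1 or 2 arrays of the SOX9 siRNAs, left out. The fit without both replicate 1 arrays was chosen after seeing the data.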

Additional observations from a re-analysis of the deposited data

How the results depend on the processing

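Depth is not a quantity of these arrays: precision is limited by 2 arrays a group and, for the 9 untested probe sets, by signals close to background. Of 683 values of the tested member probe sets under the alternatives, 633 kept their direction and their side of the threshold, 11 passed it only under an alternative, 0 lost a call and 39 changed sign, all 39 in values that were not called. Without a fit of the replicate block or a left-out array, 0 member probe sets were called in any comparison.

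Among all tested probe sets, the calls for both siRNAs against control numbered 1, against 4 with an offset of 64, 7 with the filter at the 75th percentile, 5 with 1 probe set per gene, 821 with the replicate block, 0 to 165 with 1 array left out, 0 without both replicate 2 arrays and 950 without both replicate 1 arrays of the siRNAs. For siRNA A they numbered 2, against 1 with an offset of 1 or without trend, 356 with the replicate block and 0 to 8 with 1 array left out. For siRNA B they numbered 17, against 4 with an offset of 1, 45 with the filter at the 75th percentile, 0 without trend, 9 with only the compared groups, 1528 with the replicate block and 0 to 2080 with 1 array left out. Between the siRNAs they numbered 13, against 4 with an offset of 1 or without trend, 22 with the filter at the 75th percentile, 41 with only the compared groups, 709 with the replicate block and 0 to 575 with 1 array left out. Quantile normalization, median centring and no filter gave 0 calls in each of the 4 comparisons. The highest counts came without siRNA B replicate 1 in the comparisons for both siRNAs, for siRNA B and between the siRNAs, and without siRNA A replicate 1 for siRNA A. The fits left with 1 array in a group assume that it varies like the others.

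Member probe sets called numbered 1 for both siRNAs, 1 for siRNA A and 2 for siRNA B with the replicate block, which changed no other member call. They numbered 1 without both replicate 1 arrays, where the count over all tested probe sets rose as well, as given above. With 1 array left out, member probe sets were called only for siRNA B and between the siRNAs. All these calls came without siRNA B replicate 1, where 1 array stood for siRNA B and the counts over all tested probe sets were also highest. Without both replicate 2 arrays the signs turned for HSD17B6 (0.48 and 0.44), HSD17B10 (-0.13) and SRD5A1 204675_at (0.0017). For siRNA A, quantile normalization turned HSD17B12 (0.032) and SRD5A1 204675_at (0.017), and median centring turned the same probe sets (0.050 and 0.040).

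With 1 array left out, log2 fold changes of both signs were seen as follows. For both siRNAs HSD17B6 ran from -0.71 to 0.19 in 205700_at and from -0.58 to 0.16 in 37512_at, HSD17B10 from -0.011 to 0.44 and SRD5A1 210959_s_at from -0.24 to 0.039. For siRNA A HSD17B6 ran from -0.45 to 0.71 and from -0.41 to 0.71, HSD17B10 from -0.18 to 0.30, HSD17B12 from -0.087 to 0.071, and SRD5A1 from -0.30 to 0.27 in 204675_at, from -0.17 to 0.20 in 210959_s_at and from -0.14 to 0.15 in 211056_s_at. For siRNA B HSD17B6 ran from -1.55 to 0.25 and from -1.31 to 0.17, HSD17B10 from -0.083 to 0.81 and STS 203769_s_at from -0.012 to 0.76. Between the siRNAs, siRNA A minus siRNA B, AKR1C3 ran from -0.27 to 0.14, HSD17B6 from -0.12 to 1.68 and from -0.022 to 1.46, HSD17B10 from -0.75 to 0.14, STS 203767_s_at from -0.89 to 1.05 and STS 203769_s_at from -0.30 to 0.69. The cause of these turns was not tested.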
